A study of Mus musculus with 6 samples.

Results

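Protamines and transition proteins are the small basic proteins that take the place of histones when the nucleus of a spermatid is compacted, and 5 mouse genes for them were examined: Prm1, Prm2, Prm3, Tnp1 and Tnp2. Members were cytosine positions with at least 10 reads in all 6 libraries that lay from 2 kb before to 2 kb past one of these genes in build GRCm38. The windows held 53 such sites of 952515 in the whole data set, 18 in the Prm1 window, 5 in the Tnp1 window and 30 in the Tnp2 window. The Prm2 and Prm3 windows held 0. With the minimum lowered to 5 reads, the Tnp1 window held 10 sites and the Prm2 and Prm3 windows still held 0, so these 2 genes are described from positions read fewer times.

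The samples were right testes of mature male KM mice, an outbred stock with no engineered allele named. In the 3 hemicastrated mice the left testis had been taken out before puberty, and the 3 controls had a sham operation at the same time. Ages are not given. Each mouse gave 1 library of reduced representation bisulfite sequencing (RRBS), in which DNA is cut at CCGG by the enzyme MspI, short fragments are treated with bisulfite and sequenced, and a cytosine that stays a cytosine is counted as methylated.

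The libraries held 64504011 to 78630942 calls at 4188334 to 6473931 positions. The testis label was checked by methylation. Promoters methylated on the maternal copy in somatic cells and unmethylated in male germ cells were measured for 3 of 6 genes, Kcnq1ot1, Plagl1 and Snrpn, at 7.87% to 15.5%. Germ line genes that are methylated in somatic cells were measured for 3 of 5, Dazl at 8.18%, Mael at 20.8% and Sycp1 at 36.4% (2 sites).

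In spermatids most histones are first replaced by transition proteins, of which Tnp1 and Tnp2 encode the 2 known in the mouse. Protamines, encoded by Prm1 and Prm2, then replace the transition proteins. Prm3 lies in the same cluster and encodes a protein that is acidic and found in the cytoplasm of spermatids. These genes are transcribed in round spermatids, their mRNAs are stored, and translation follows days later in elongating spermatids. Methylation of cytosine in CpG dinucleotides at a gene start commonly accompanies silence of a gene with a CpG-rich start, while starts poor in CpGs vary more.

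Prm1 (chr16:10796332-10796823), Prm2 (chr16:10791377-10792105), Prm3 (chr16:10790508-10790914) and Tnp2 (chr16:10787935-10788655) form a cluster on chromosome 16, and Tnp1 (chr1:73015074-73015899) stands alone on chromosome 1. All 5 are on the minus strand. The bases round their starts are shown because they decide what RRBS can read there. Each line gives 100 bases before the transcription start and the first 10 transcribed bases, 5′ to 3′ on the minus strand, from RefSeq in build GRCm38.p6, with CpGs in capitals.
Prm1: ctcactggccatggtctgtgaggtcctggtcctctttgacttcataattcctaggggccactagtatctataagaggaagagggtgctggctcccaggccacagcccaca
Prm2: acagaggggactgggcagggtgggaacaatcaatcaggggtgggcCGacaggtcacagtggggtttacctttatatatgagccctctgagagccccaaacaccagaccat
Prm3: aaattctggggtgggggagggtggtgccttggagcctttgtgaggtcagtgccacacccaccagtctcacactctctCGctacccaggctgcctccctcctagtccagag
Tnp1: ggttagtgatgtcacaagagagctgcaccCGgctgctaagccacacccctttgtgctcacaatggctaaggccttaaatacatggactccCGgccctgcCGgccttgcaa
Tnp2: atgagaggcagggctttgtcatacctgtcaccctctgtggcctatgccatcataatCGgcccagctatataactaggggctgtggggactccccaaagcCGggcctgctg

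The Prm1 stretch holds no CpG. Tnp1 has the MspI sequence CCGG at 72, 11 and 2 bases before its start, Tnp2 has it at 2 bases before, and the 3 protamine genes have none. In the longer stretch from 250 bases before to 50 after the start, Prm1 has 1 CpG, Prm2 has 3, Prm3 and Tnp2 have 4 each and Tnp1 has 6, against a median of 7 over 32817 RefSeq promoters of that length. CCGG occurs in 52.8% of 32851 such promoters. The palindrome TGACGTCA, the full site of the CREM and CREB factors, is in none of the 5 and in 1.79% of all promoters, searched on both strands. Variants of this site were not searched, so its absence does not mean that these factors have no site there.

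The start of the Tnp1 transcript also holds the measured CpGs, and its coding sequence is shown from the first ATG (chr1:73015786-73015863, minus strand, CpGs in capitals). These bases were read from the RefSeq promoters of Tnp1 and of the neighbouring gene on the other strand, which overlap.
Tnp1 coding start: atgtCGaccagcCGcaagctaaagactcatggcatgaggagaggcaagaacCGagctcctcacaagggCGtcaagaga

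Transition protein 1 had a low methylation level in every library, and the level was higher in the hemicastrated mice on one strand of its 5 CpGs. The 5 sites were minus-strand cytosines at 73015877, 73015859, 73015851, 73015812 and 73015795 of chromosome 1, which are 22, 40, 48, 87 and 104 bases after the start. The first lies before the ATG and the other 4 are the CpGs of the coding bases shown. The mean level over the 5 sites was 20.4%, 28.4% and 21.7% in the hemicastrated libraries. It was 13.1%, 14.3% and 8.17% in the sham libraries. Every hemicastrated library was above every sham library, so the groups did not overlap. The share of all gene windows without overlap was not counted, so this is no mark of Tnp1. Among the 23 measured genes of the list given below, the groups also did not overlap at several. Hemicastrated levels were the higher at Tarbp2, H1f7 and H2bc1 and the lower at Kdm3a and Psme4.

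The group means for Tnp1 were 23.5% ± 4.29 after hemicastration and 11.9% ± 3.24 after sham surgery (SD, n = 3 each). The difference of 11.6 percentage points (SE 3.11) gave a two-sided exact permutation p of 0.1, the smallest that 3 against 3 can give. It was 0.2 after Benjamini-Hochberg adjustment over 4 comparisons. These were the Tnp1, Prm1 and Tnp2 windows and the chromosome 16 cluster, which joins the Prm1 and Tnp2 windows, so they are not independent. A larger absolute difference, from the unweighted level of a gene window, occurred in 0.725% of 22195 gene windows with at least 3 sites. These windows were not matched to Tnp1 for level, number of sites or reads, and 6801 of them had a mean level of 0% to 5%. The share thus does not measure how rare such a difference is at a window like that of Tnp1. The testis was sequenced whole, so a different share of a cell type and a different level within a cell type cannot be told apart.

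**Figure D1:**
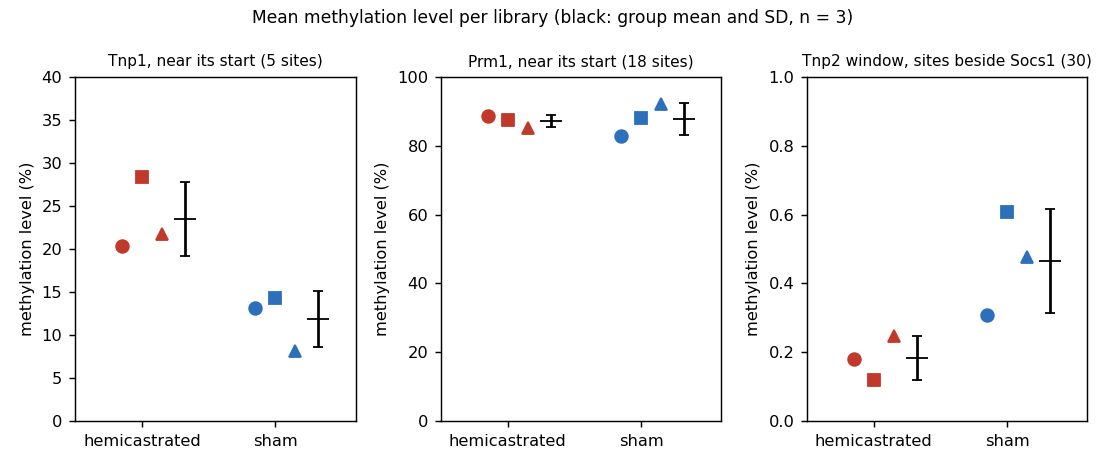
Mean methylation level in percent (vertical axis, a scale of its own in each panel) of the measured sites of the Tnp1, Prm1 and Tnp2 windows, with 1 point per library and the group mean and SD in black. The hemicastrated points lie above the sham points at Tnp1 (20.4% to 28.4% against 8.17% to 14.3%), the groups overlap at Prm1, and the levels in the Tnp2 window are all below 1%.

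The 5 Tnp1 sites are not independent measurements. Their read numbers within a library differed by at most 1, from 36 to 77 reads over the libraries, so nearly every read covered all 5 sites. All 5 gave the same direction. The third site, 48 bases after the start, had the highest mean of the 5 in both groups, 27.9% in hemicastrated and 16.8% in sham libraries. The smallest single value was 1 methylated read of 37, or 2.70% (Wilson 95% interval 0.479% to 13.8%), at 73015859 in sham replicate 3.

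In the model fitted to all gene windows, which sums the counts of a gene and 2 kb on each side, 0 of the 3 measured members passed an adjusted p of 0.05 by edgeR's quasi-likelihood test. The background was the same, with 0 of 24412 windows (0%) called. Without adjustment, 810 windows (3.32%) had p under 0.05, and limma called 2 windows, neither of them a member. For Tnp1 the log2 difference of the methylated to unmethylated ratio was 1.15, with an edgeR p of 0.00514 before and 1 after adjustment. Of the 3 member windows it alone had an unadjusted edgeR p under 0.05.

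Over single sites, edgeR called 706 of 814966 sites (0.0866%) and 0 of the 36 member sites that could be tested. None of the 36 had an unadjusted p under 0.05 by edgeR, and limma gave 3 below it and called 0. This fit estimated 1 spread for all sites. The 2 Tnp1 sites with the smallest p were 73015795, at 23.6% against 10.5% (edgeR p 0.0589, adjusted 0.841), and 73015812, at 22.2% against 9.89% (edgeR p 0.0606, adjusted 0.841). Of 71149 tiles of 500 bp, edgeR called 0 (0%), including 0 of the 4 tiles in member windows. The tile that holds the Tnp1 sites had an edgeR p of 0.00672 and an adjusted p of 1, and 3039 tiles had an unadjusted p under 0.05.

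The plus-strand cytosines of the same 5 Tnp1 CpGs had 7 to 33 reads and did not pass the 10-read minimum. Their mean levels were 15.3%, 17.1% and 8.49% in hemicastrated and 9.47%, 9.22% and 22.9% in sham libraries. Here the groups overlapped. The means were 13.6% ± 4.55 and 13.9% ± 7.80 (SD, n = 3 each), a difference of -0.21 percentage points with an exact permutation p of 1. Sham replicate 3 had the highest level of the 6 on this strand, from 7 or 8 reads a site, and the lowest on the other strand.

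**Figure D2:**
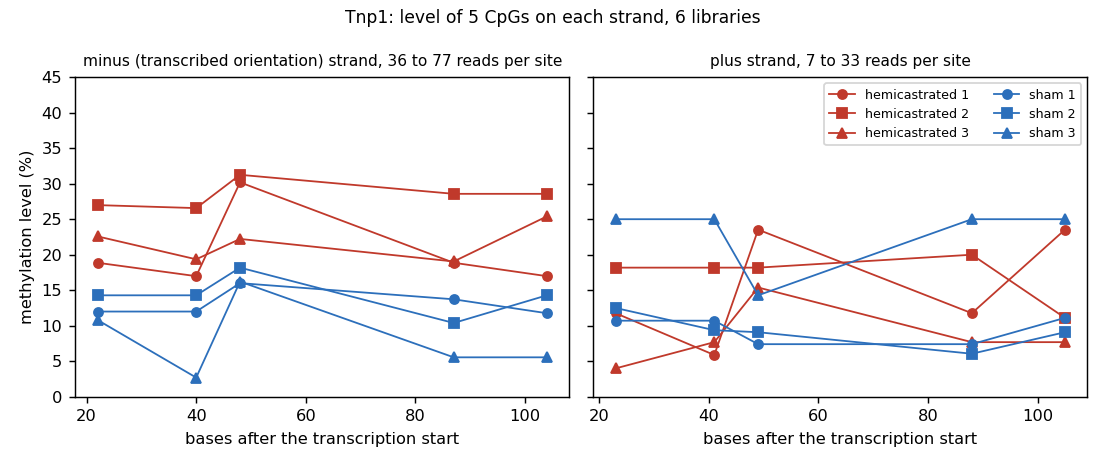
Methylation level in percent of each of the 5 Tnp1 CpGs (vertical axis) against bases after the transcription start (horizontal axis), with 1 line per library, the minus strand at left and the plus strand at right. The red hemicastrated lines lie above the blue sham lines on the minus strand, which has 36 to 77 reads per site, and mix with them on the plus strand, which has 7 to 33.

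With both strands at the 5-read minimum and each of the 10 positions weighted equally, Tnp1 was at 18.6% ± 3.88 in hemicastrated and 12.9% ± 2.32 in sham libraries (SD, n = 3 each; difference 5.72 points, exact permutation p 0.2), and the groups overlapped. Weighted by reads, the 10 positions gave 21.3% ± 4.85 and 11.8% ± 0.982 (difference 9.48 points, exact permutation p 0.1) without overlap. The minus-strand level less the plus-strand level was 5.08, 11.3 and 13.2 points in hemicastrated and 3.63, 5.06 and -14.7 points in sham libraries. The lowest hemicastrated value was just above the highest sham value, and the means of 9.86 and -2.00 points differed by 11.9 points, with an exact permutation p of 0.1, the smallest possible here.

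The rest of the Tnp1 window was read thinly and showed a low level inside the gene and a high one outside. At 15 further positions in the gene that had fewer than 5 reads in some library, 1 of 25 calls was methylated, summed over all 6 libraries (4.0%, Wilson 95% interval 0.71% to 19.5%). At 19 such positions of the window outside the gene, 25 of 26 calls were methylated (96.2%, Wilson 95% interval 81.1% to 99.3%). Inside the gene sham replicates 1 and 3 had 0 calls and hemicastrated replicate 1 had 12 of the 25. Outside it hemicastrated replicate 2 had 0, so the groups were not compared at these positions. The intervals treat every call as independent. Neighbouring positions can lie on the same read and PCR copies are not independent molecules, so the intervals are too narrow. The nearest gene, the non-coding 1700027A15Rik, starts 137 bp from Tnp1 on the other strand, and its window held the same 5 sites, so these cannot be assigned to one of the pair. On the other side Gm31137, a non-coding gene 9046 bp away, was at 76.6% ± 9.03 in hemicastrated and 70.7% ± 5.92 in sham libraries (SD, n = 3 each, 4 sites, exact permutation p 0.3).

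Protamine 1 was highly methylated inside the gene in both groups and did not differ between them beyond the spread of the libraries. Its 18 sites were both strands of 9 CpGs between 104 and 174 bases after the start (chr16:10796649-10796719), with 110 to 192 reads per site. The mean level was 88.6%, 87.5% and 85.3% in the hemicastrated and 83.0%, 88.1% and 92.2% in the sham libraries. The sham libraries included both the lowest and the highest of the 6. The means were 87.1% ± 1.73 and 87.8% ± 4.62 (SD, n = 3 each), and the difference of -0.63 points (SE 2.85) gave an exact permutation p of 0.9.

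The 9 Prm1 CpGs were alike. With the strands summed, the lowest was the CpG 143 bases after the start, at 83.1% ± 3.90 over the 6 libraries, and the highest was the CpG 164 bases after it, at 90.8% ± 2.75 (SD, n = 6 each). The groups overlapped at each of the 9. The 2 sites with the smallest edgeR p were 10796680, at 81.9% in hemicastrated and 86.0% in sham libraries (adjusted p 0.856), and 10796718, at 83.5% and 86.9% (adjusted p 0.868).

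**Figure D3:**
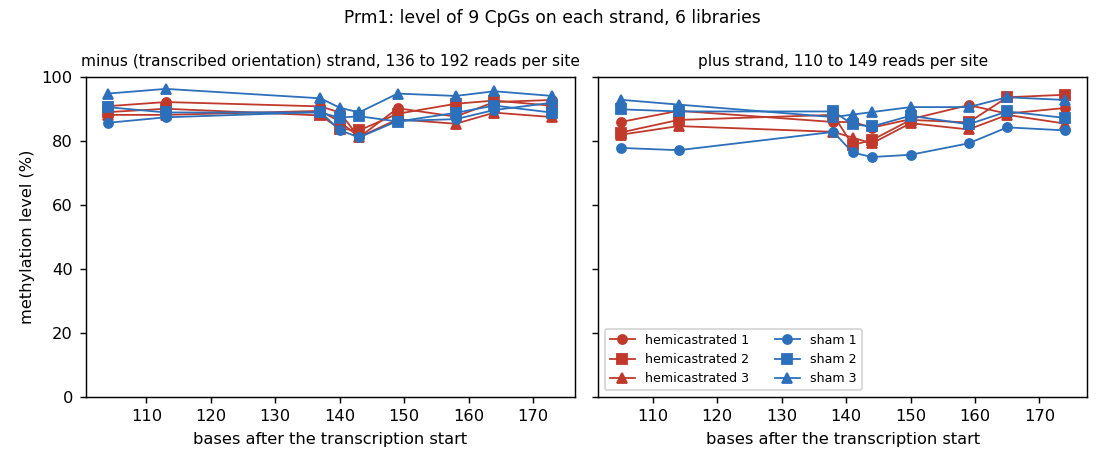
Methylation level in percent of each of the 9 Prm1 CpGs (vertical axis) against bases after the transcription start (horizontal axis), with 1 line per library, the minus strand at left and the plus strand at right. All lines run between 75% and 97%, dip at the CpGs 140 and 143 bases after the start, and the groups are mixed on both strands.

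On the minus strand, which has the sequence of the transcript, Prm1 was higher than on the plus strand in 6 of 6 libraries, by 3.23 points on average (SD 2.32; two-sided exact sign-flip permutation p 0.031, the smallest that 6 libraries give). This comparison was added after the data were seen, so its p is not that of a comparison set beforehand. The excess ranged from 1.18 points in sham replicate 2 to 7.75 in sham replicate 1. Over 58650 CpGs at 75% to 95% in the whole data set the same strand difference had a median of 0.0212 points for single CpGs. Its lowest and highest deciles were -4.31 and 4.38 points, and the median absolute difference was 2.15 points. A difference of 3.23 points is thus within the common range of single CpGs, and means over several CpGs of a gene were not compared.

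The Tnp2 window held 30 sites, and none of them was in Tnp2. They lay 1774 to 1978 bp past the end of Tnp2 and 421 to 625 bp before the start of Socs1, a suppressor of cytokine signalling and the next gene (chr16:10785957-10786161). The mean level of these sites was 0.181%, 0.120% and 0.248% in hemicastrated and 0.307%, 0.609% and 0.476% in sham libraries. The groups did not overlap, at 0.183% ± 0.0641 and 0.464% ± 0.151 (SD, n = 3 each, exact permutation p 0.1, adjusted over the 4 comparisons 0.2). In all, 21 of 5408 calls were methylated, and 17 of the 30 sites had 0 methylated calls. Mitochondrial DNA, taken as unmethylated, gave 0.478% to 0.617% in the same libraries, and 5 of the 6 libraries were below their own mitochondrial level.

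At the 4 Tnp2-window sites with at least 20 reads the groups overlapped (0.406% and 0.979%, exact permutation p 0.3). The sites with the smallest edgeR p were 10785976, with 0% in hemicastrated and 0.917% in sham libraries (adjusted p 0.841), and 10786141, with 0% and 2.47% (adjusted p 0.841). The edgeR p of the whole window was 0.0937 (adjusted p 1), and limma gave 0.038 (adjusted p 1). Of the 2 tiles here, one had an edgeR p of 0.371 and the other of 0.213, both with an adjusted p of 1. The 204 sites round Socs1, these 30 included, were at 0.971% ± 0.286 (SD, n = 6).

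The bodies of Tnp2, Prm3 and Prm2 were reached only by positions with fewer than 5 reads in some library, whose calls were summed over the 6 libraries after the data had been seen. Nearly all calls were methylated. In Tnp2 itself 188 of 213 calls at 25 positions were methylated (88.3%, Wilson 95% interval 83.2% to 91.9%). In Prm3 24 of 25 calls at 9 positions were methylated (96.0%, interval 80.5% to 99.3%). In Prm2 35 of 36 calls at 19 positions were methylated (97.2%, interval 85.8% to 99.5%). These intervals are also too narrow, since neighbouring positions can share reads. The Tnp2 positions 10788544, 10788546 and 10788616, for example, each had 42 calls. Hemicastrated replicates 1 and 2 had 0 calls in Prm2 and sham replicate 1 had 0 in Prm3, so the groups were not compared there.

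Over the whole stretch from Tnp2 to Prm1, 316 of 353 calls at 89 thinly read positions were methylated (89.5%, Wilson 95% interval 85.9% to 92.3%, with calls again treated as independent). In the single libraries the share was 81.1%, 89.7% and 93.0% in hemicastrated and 86.9%, 94.2% and 88.2% in sham mice, so the groups overlapped. Every call was methylated at 65 of the 89 positions, and none was at 7. Of the 5 positions with at least 10 calls, all in Tnp2 near its start, the lowest was 10788616, with 33 of 42 calls methylated (78.6%), and the highest was 10788544, with 40 of 42 (95.2%). The stretches from 250 bases before to 50 after the start overlap the genes. There Prm1 had 9 of 12 calls methylated, Prm2 2 of 2, Prm3 had 0 calls and Tnp2 had 48 of 59. All of these Prm1 and Prm2 calls and most of the Tnp2 calls lay after the start, inside the gene, and are among the calls counted above. The bases before the starts were thus hardly read.

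**Figure D4:**
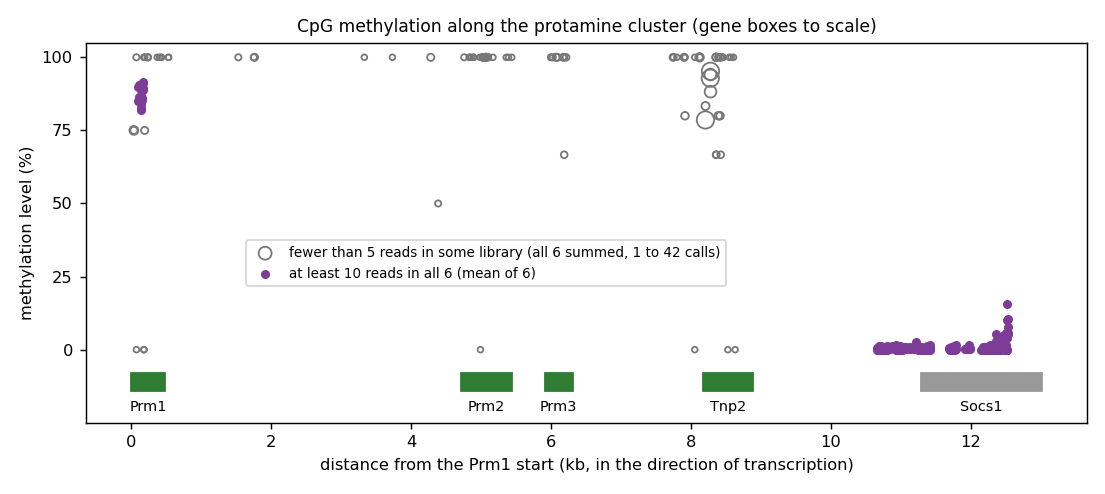
Methylation level in percent (vertical axis) along the chromosome 16 cluster, by distance in kb from the Prm1 start in the direction of transcription (horizontal axis), with gene boxes to scale. Filled points are sites with at least 10 reads in all 6 libraries, and open circles, larger with more calls, are thinly read positions with the calls of all libraries summed. High levels run from Prm1 to Tnp2 and end before Socs1, whose 204 sites average 0.971%.

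The 2 loci were compared within each library. The Tnp1 level minus that of the 48 measured sites of the chromosome 16 cluster was -15.3 points on average (SD 7.73) and below 0 in 6 of 6 libraries (exact sign-flip permutation p 0.031). The size of this contrast depends on how sites are weighted, since the cluster mean mixes the 18 Prm1 sites with the 30 near Socs1, and it was -54.0 points with at least 20 reads and -47.8 points weighted by reads. In every library the Tnp1 level was below that of the Prm1 sites and above that of the sites near Socs1. The sign-flip p thus holds for this mixture only. The cluster mean was 32.8% ± 0.622 and 33.2% ± 1.79 (SD, n = 3 each; exact permutation p 0.8). Against Prm1 alone, a comparison added after the data were seen, Tnp1 was 69.8 points lower on average (SD 8.65, values from -84.0 to -59.1). No p is given for it, since the levels of both genes were already known. The contrast of Tnp1 with the cluster was -9.30 points in hemicastrated and -21.4 in sham libraries, a difference of 12.1 points made up of 11.6 points at Tnp1 and -0.41 points at the cluster (exact permutation p 0.1).

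Both levels were placed among all genes. Prm1 was above 85.8% of 22195 gene windows with at least 3 sites, whose median level was 18.7%. Tnp1 was above 48.9% of them and the Tnp2 window above 1.0%. Over the first 200 transcribed bases of 7546 genes the median level was 0.510%, and Prm1 was above 98.6% and Tnp1 above 96.5% of these starts. Most such starts are rich in CpGs. Among the 268 starts with 6 or fewer CpGs in the promoter, as at Prm1 and Tnp1, the median was 17.3% and 32.8% were at 75% or more. Prm1 was above 76.1% of these starts and Tnp1 above 50.4%, so the level of neither gene is out of the range of other starts poor in CpGs.

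**Figure D5:**
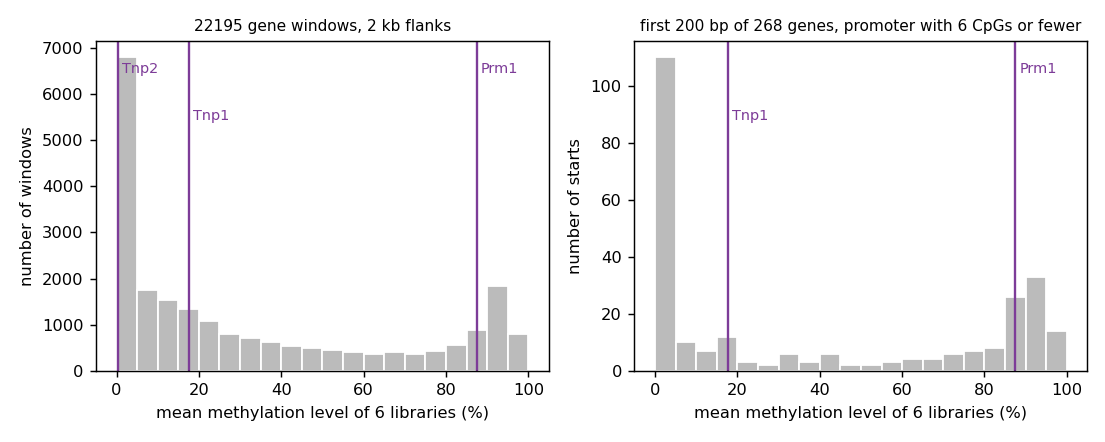
Number of gene windows (left) and of gene starts with 6 or fewer promoter CpGs (right) by mean methylation level of the 6 libraries in percent (horizontal axes), with vertical lines at the members. Prm1 falls in the upper peak of both panels, Tnp1 between the peaks, and the Tnp2 window in the lowest bin.

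Most measured sites round the 2 loci were the 204 round Socs1, at 0.971% on average, which include the 30 of the Tnp2 window. The other groups of sites were small. Within 20 kb, the 4 measured groups of sites outside genes and away from the members held 2 or 3 sites each. They were at 88.4% to 96.8% on average, and Socs1 was the 1 unmethylated stretch. Levels in Gm31137 were uneven: its site 73000743 averaged 26.1% and ranged from 0% to 64.7% over the libraries, which widens the spread given for that gene. No site was measured at the pseudogene Gm10343, 4530 bp before Prm1.

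A list of 27 genes that act on the protamine and transition protein genes or with their products was examined in the same windows, and 23 of them were measured. By edgeR 0 of the 23 were called in either direction, and by limma 0. The difference was above 0 in 10 and below 0 in 13, with a median of -0.11 points, beside a median of -0.04 points and 47.0% above 0 over all 24412 windows. The transcription factors and cofactors of spermatids (6 of 7 measured) had levels of 0.257% to 12.1%, and the genes for mRNA storage and translation (4 of 5) 0.416% to 5.54%. The testis histones (3 of 5) were at 1.06% to 22.9%, the genes of histone removal and remodelling (7 of 7) at 1.55% to 51.8%, and the kinases (3 of 3) at 0.994% to 26.3%. None of the 23 reached the level of Prm1.

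The 2 with the smallest p were both regulators of transcription. Sox30, a transcription factor of spermatids, was at 5.79% in hemicastrated and 9.27% in sham libraries from summed counts (edgeR p 0.00023, adjusted p 0.563), while its unweighted level differed by -0.18 points. Kdm3a, a histone demethylase that binds the Tnp1 and Prm1 promoters in spermatids, was at 0% and 0.519% (edgeR p 0.0228, adjusted p 1), close to the mitochondrial level. By the mean absolute difference over the 6 libraries among the 23 windows, the windows most like Tnp1 were those of the testis histones H2bc1 (4.23 points) and H1f7 (5.71 points). Both were also higher in hemicastrated than in sham libraries without overlap. H2bc1 was at 19.6% against 16.1% and H1f7 at 25.1% against 20.6% (exact permutation p 0.1 each). The H2bc1 window held the same sites as those of H2ac1 and Gm33516, so these cannot be assigned to 1 gene. The nearest to Prm1 were Rnf8, a ubiquitin ligase of histone removal (35.6 points), and the remodeller Chd5 (36.6 points). The nearest to the Tnp2 window were Kdm3a (0.183 points) and Crem (0.185 points), the activator of spermatid genes.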

How the data were processed

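RRBS libraries of the right testis of 3 hemicastrated and 3 sham-operated mice were used. For each listed cytosine the authors deposited a methylated count, an unmethylated count and the level in percent. These deposited counts had not been normalized, and the percent matched the methylated share of both counts at every position. Per the submitters' processing notes, Bismark, TopHat2 2.0.11 and build GRCm38 were used. For trimming and duplicate removal, nothing is given in the sources used here, and the files carry no strand. Of listed positions inside RefSeq promoters, 99.5% were at a CpG, and strands were read from the sequence or from the order of the 2 neighbouring positions of a CpG.

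Genes and promoters came from RefSeq GRCm38.p6. A library's level was the unweighted mean over sites with at least 10 reads in all 6 libraries. Counts of sites, of gene windows with 2 kb flanks and of 500 bp tiles with at least 3 sites were tested in edgeR 4.0.16 (R 4.3.3) by the quasi-likelihood test with 1 column per library and methylation by group, and Benjamini-Hochberg adjustment over all features. Features methylated in no or every read were left out. limma 3.58.1 on log2 ratios, with 1 added to each count, was an alternative, beside other coverage minimums, windows, priors and libraries left out. The models were tested on simulated data. Shares of calls have Wilson 95% intervals, which treat calls as independent.

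The members and lists were chosen with earlier results of these data known. Named were all 5 genes, the 2 sites with the smallest p in each window, every tile in a window, the nearest genes, the 2 pathway windows with the smallest p, and the 2 most like each member. The thinly read positions, the strand comparisons and the contrast with Prm1 alone were added after the data were seen.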

Additional observations from a re-analysis of the deposited data

How the results depend on the processing

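No member site, window or tile, and no gene of the pathway list, was called under any of the alternatives run. Leaving out each library in turn gave a Tnp1 difference of 9.20 to 13.2 points (exact permutation p 0.1 each time), and the Tnp2-window difference ranged from -0.36 to -0.21. The Prm1 difference ranged from -3.03 to 1.59 points and turned to 0.32 without hemicastrated replicate 3 and to 1.59 without sham replicate 3. In the fitted window the Prm1 range was -2.88 to 1.54, with 0.34 without hemicastrated replicate 3. The cluster difference ranged from -1.36 to 0.42, and it was 0.24 points when weighted by reads. On the plus strand alone, chosen after the data were seen, the Tnp1 difference was -0.21 points. Tnp1 minus cluster ranged from -17.5 to -13.0 points without 1 library, and 5 libraries cannot give an exact p below 0.0625. It was -54.0 points with at least 20 reads, -47.8 weighted by reads and -69.8 with 1 kb flanks, which hold Prm1 sites only.

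The 706 calls over all sites became 147 with limma and 446 with a robust prior. Gene windows called went from 0 to 2 with limma and to at most 2 with a library left out, and tiles from 0 to 3 when 1 site sufficed, none of them members. Whether the replicate numbers pair the mice could not be told from the levels. Deviations of same-numbered libraries correlated at 0.025, 0.028 and -0.0064, and those of differently numbered libraries at -0.033 to 0.0077. With the replicate block, edgeR called 606 sites and 1 window, none a member, and gave Tnp1 a p of 0.00364 (adjusted 1). Depth limits Prm2 and Prm3, which had no position with 5 reads in every library.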
